A study of Mus musculus with 46 samples.

Results

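The 10 genes followed here are direct targets of the transcription factor p53, and they were read by gene symbol in 7 count tables: Cdkn1a, Mdm2, Ccng1, Bbc3, Bax, Pmaip1, Trp53inp1, Phlda3, Zmat3 and Aen. They were picked by name with earlier results of these data known, as were the other gene lists below. Shares of all genes are set beside their counts as a description and are no independent support. The tables held 21812 gene symbols in all, and all 10 members passed the filter on low counts in every comparison. The series held 46 RNA-seq libraries of mouse EPSCs (expanded-potential stem cells, a culture state that can give embryonic and extra-embryonic lineages) and of cells derived from them. The submitters asked how these cells differ by state and how RNA stability varies with it, and the title names N6-methyladenosine (m6A), an internal mark of mRNA. Cells labelled PrEdiff were EPSCs grown in a medium that induces primitive endoderm (PrE). PrEdiff cells were labelled Virma WT or Virma cKO, Mettl3 WT or Mettl3 cKO, and siNC (control siRNA) or siIgf2bp3, with 2 libraries each. Virma and Mettl3 belong to the enzyme complex that writes m6A, and Igf2bp3 binds methylated mRNA. Induced cultures were also sorted by CD140 into PrE-E (CD140+) and EPI-E (CD140-), with 2 libraries each. Embryoids, structures grown for 5 days from EPSC and GBL-1 cells, were digested into a visceral endoderm (VE) and an epiblast (EPI) part, with 6 libraries each. EPSCs (groups EPS) and PrEdiff cells were collected after 0, 1, 2 and 3 h of actinomycin D, which blocks transcription, with 2 libraries each, and untreated EPSC gave 2 more. The labels did not give the Cre line behind either cKO, the clones used, the animals or cultures behind each replicate, or what GBL-1 is.

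The tumour suppressor p53 is a transcription factor that is kept low by the ubiquitin ligase Mdm2 and its partner Mdm4, and that is stabilised by DNA damage and other stress. It binds paired decamers near its targets and raises genes that stop the cell cycle, trigger apoptosis, or feed back on p53 itself. Cdkn1a, the p21 inhibitor of cyclin-dependent kinases, also lets the DREAM complex silence mitotic genes. Pluripotent cells express much p53, and mRNA of several of its targets turns over quickly.

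Stretches of RefSeq promoter windows (250 bases before to 50 after an annotated start, GRCm38.p6) are shown because binding by p53 is what the members are known to share. They come from 4 of the 5 members whose windows held a decamer of the p53 response element, each upstream of the start. Aen is the member not shown. Capitals mark decamers that match the p53 half-site consensus, and in Cdkn1a and Ccng1 also the neighbouring decamer that misses it by 1 base.
Cdkn1a (chr17:29090881-29090972, plus strand): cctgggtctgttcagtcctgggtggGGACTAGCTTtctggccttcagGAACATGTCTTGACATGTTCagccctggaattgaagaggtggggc
Ccng1 (chr11:40755437-40755506, minus strand): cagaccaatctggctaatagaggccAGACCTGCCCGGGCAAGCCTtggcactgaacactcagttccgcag
Mdm2 (chr10:117710910-117710969, minus strand): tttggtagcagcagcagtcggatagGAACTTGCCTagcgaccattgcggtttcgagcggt
Bax (chr7:45467065-45467124, minus strand): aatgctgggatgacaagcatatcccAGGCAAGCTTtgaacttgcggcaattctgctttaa

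The table of promoter windows had entries for 7 of the 10 members, in 11 windows. The first Cdkn1a window held 2 exact decamers 12 bases apart, from 73 to 42 bases before its start, which counts as a full site. Its second window, around a start further into the gene, held none. Both strands were searched, with a spacer of up to 13 bases between decamers. Of 32851 mouse windows of the same length, 8.36% held at least 1 decamer, 0.0731% (24 windows) a full site and 0.627% a full site with 1 mismatch allowed. Ccng1 had a full site with 1 mismatch and no spacer, 195 to 176 bases before its start. Mdm2, Bax and Aen each held a single decamer, and the windows of Bbc3 and Phlda3 held none. The match describes the letters in these windows only.

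Before the perturbations, the targeted genes were read in their own tables. Levels are CPM (counts scaled to a fixed library total) scaled with TMM factors within a table, and each change is an edgeR log2 change with its SE, called when the adjusted p over all tested genes was under 0.05. Virma was at 107 and 109.8 CPM in Virma WT and at 67.7 and 54.6 CPM in Virma cKO, and it fell by 0.82 ± 0.12 (edgeR adjusted p = 1.12e-06). Mettl3 did not separate the libraries labelled Mettl3 WT (37.4 and 35.2 CPM) from those labelled Mettl3 cKO (34.9 and 37.1 CPM), at -0.02 ± 0.11 (edgeR adjusted p = 0.978). Igf2bp3 was at 98.4 and 113 CPM in siNC and at 117 and 111 CPM in the libraries labelled siIgf2bp3, at 0.11 ± 0.11 (edgeR adjusted p = 0.577). The counts thus followed the label for Virma alone, and a loss of Mettl3 or Igf2bp3 RNA was not seen. Whether the Mettl3 deletion leaves the rest of its transcript in place, which a gene count would not show, was not tested. Why Igf2bp3 RNA was not lower under its siRNA label was not tested either. Library totals ran from 6854433 to 22280769 counts. Replicates may be technical, since the labels name no culture, so p-values measure the spread between these libraries. In tables with 2 groups of 2 libraries, a fit with 1 library left out takes its replicate spread from the other group alone. Calls kept, gained or lost in such fits thus also depend on how close that remaining pair was. For the actinomycin D slopes, with 1 line per state, that spread also takes in how far the hours lay from the line. A slope can thus miss a call because its course was curved. The 2 EPS libraries at 3 h stood apart in the actinomycin D series, with a ribosomal protein share of 10.6% to 10.7% after 16.1% to 16.2% at 2 h.

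In Virma cKO, 9 of the 10 p53 targets rose and 1, Pmaip1, fell. Over all 13113 genes tested, 33.2% were called (15.1% higher and 18% lower). The median change of the 10 members was 0.83, against 0.02 for all genes. For all 10 members the cKO libraries lay outside the range of the WT libraries, 9 on the higher side and 1 on the lower, where 33.3% of tested genes lay wholly higher and 32.1% wholly lower. With 2 libraries a group, such a separation was common in this table. Scaling moved the balance of calls over all genes: 1984 rose and 2364 fell here, 3001 and 1491 on library totals and 4936 and 717 on ribosomal protein genes, which moved the median of all genes by 0.20 and 0.43.

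Cdkn1a, the cell cycle inhibitor, was at 23.9 and 23.1 CPM in Virma WT and at 58.5 and 51.9 CPM in Virma cKO. Both cKO libraries lay far above both WT libraries. The rise was 1.23 ± 0.17, or 2.34-fold (edgeR adjusted p = 3.45e-07). Ccng1, a cyclin-like protein that recruits a phosphatase to Mdm2, was at 173 and 150.5 CPM in WT and 227 and 247 CPM in cKO. It rose by less than Cdkn1a, by 0.55 ± 0.08 (edgeR adjusted p = 2.91e-06).

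Mdm2, the ligase that marks p53 for degradation, stood at 178 and 185 CPM in Virma WT and at 279.9 and 279 CPM in Virma cKO. Its replicates were the closest of the members in cKO, and it rose by 0.62 ± 0.08 (edgeR adjusted p = 5.41e-08). Trp53, the gene for p53, moved the other way, from 80.4 and 74.2 CPM in WT to 63.7 and 52.4 CPM in cKO, and fell by 0.41 ± 0.13 (edgeR adjusted p = 0.0131). That fall was not called without WT replicate 1 (adjusted p = 0.0842) or cKO replicate 2 (0.19), nor on library totals (0.171) or ribosomal protein scaling (0.999). Mdm4, the partner of Mdm2, fell by 0.79 ± 0.11 (edgeR adjusted p = 3.42e-07).

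The feedback and stress members rose together in Virma cKO. Phlda3, an inhibitor of Akt signalling, was at 8.22 and 17.9 CPM in WT and at 35.8 and 31.1 CPM in cKO. Its WT libraries differed by more than those of any other member, and the rise was 1.34 ± 0.25 (edgeR adjusted p = 5.16e-05), 0.89 without WT replicate 1 and 2.00 without WT replicate 2. Aen, an exonuclease that takes part in DNA breakdown during apoptosis, was at 39.5 and 43.9 CPM in WT and 90.2 and 85.2 CPM in cKO. The groups were well apart, and Aen rose by 1.07 ± 0.13 (edgeR adjusted p = 5.22e-08). Trp53inp1, a stress protein linked to autophagy and p53 phosphorylation, went from 54.3 and 50.7 CPM to 89.4 and 94.7 CPM, a rise of 0.81 ± 0.12. Zmat3, an RNA-binding zinc finger protein, went from 34.7 and 27.8 CPM to 57.6 and 54.7 CPM, a rise of 0.84 ± 0.16 (edgeR adjusted p = 2.48e-06 for Trp53inp1 and 7.64e-05 for Zmat3).

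The 3 members of the BCL2 family did not move as 1 group in Virma cKO. Bbc3, the BH3-only protein PUMA, was at 4.01 and 3.83 CPM in WT and at 7.12 and 10.6 CPM in cKO. It rested on 40 to 126 counts a library, and rose by 1.14 ± 0.42 (edgeR adjusted p = 0.0323). Bax, the pore-forming effector, was at 25.8 and 38.7 CPM in WT and 44.1 and 48.8 CPM in cKO, and rose by 0.52 ± 0.18 (edgeR adjusted p = 0.0215). Both calls were weak. Bbc3 was not called without WT replicate 1, WT replicate 2 or cKO replicate 2 (adjusted p 0.0523, 0.0712 and 0.363). Bax was not called without WT replicate 1 (0.355) or cKO replicate 2 (0.126), and DESeq2 called neither (0.0818 and 0.0968). Pmaip1, the BH3-only protein NOXA, was the exception in sign: it was at 329 and 330.5 CPM in WT and 225 and 276 CPM in cKO. It fell by 0.39 ± 0.08 (edgeR adjusted p = 0.00019), but stood at 0.02 with ribosomal protein genes as the scale.

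**Figure D1:**
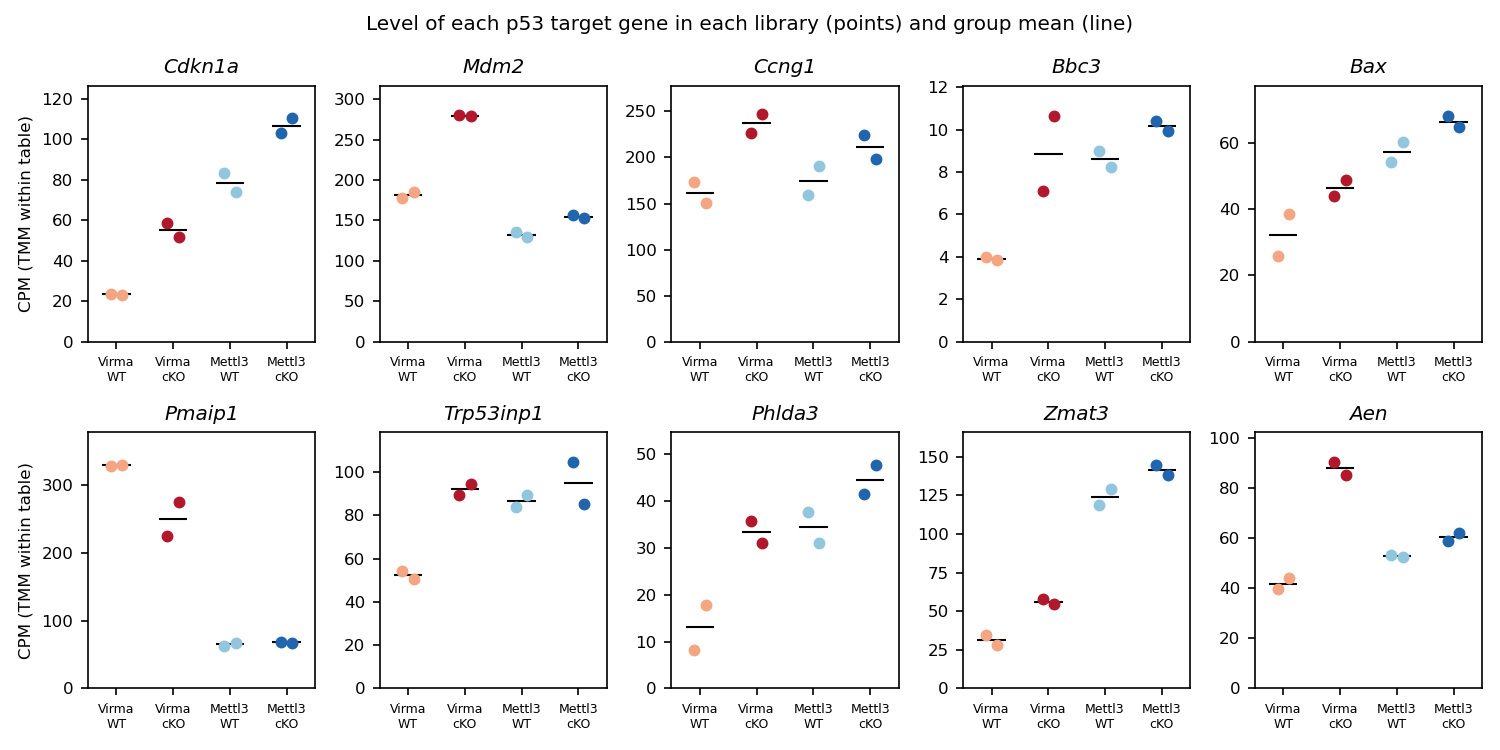
Level of each of the 10 p53 target genes in CPM (vertical axes, from 0) in the 2 libraries of each Virma and Mettl3 group (points), with the group mean as a line. For Virma every cKO point lies above both WT points except for Pmaip1, where both lie below, and in the Mettl3 table Trp53inp1 alone overlaps.

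Further genes of the pathway were read from lists of other targets, regulators and neighbours. Of 30 other p53 targets, 13 rose and 0 fell in Virma cKO (edgeR; 17 had an unadjusted p under 0.05), with a median of 0.46. Among them were Sfn, a scaffold protein that blocks entry into mitosis, at 1.06 ± 0.07, and the kinases Plk3 and Dyrk3 at 1.18 ± 0.14 and 1.27 ± 0.16. Of 15 tested regulators of p53, 3 rose and 4 fell: Usp7, a deubiquitinase of Mdm2 and p53, fell by 0.52 ± 0.07 and Trp53bp1, a DNA damage mediator, rose by 0.72 ± 0.10. Of 18 other BCL2 family and caspase genes, 4 rose and 3 fell. Over all genes tested here 33.2% were called (15.1% higher and 18% lower), so the share called in this last list was near that of all genes. Casp8, the initiator caspase of death receptors, rose by 2.12 ± 0.36 and Bcl2l1, which opposes Bax, by 0.63 ± 0.14. Xiap, an inhibitor of caspases, fell by 0.95 ± 0.13 and Cycs, cytochrome c, by 0.51 ± 0.07. On ribosomal protein scaling Usp7 stood at -0.11 (adjusted p = 0.193) and Cycs at -0.098 (0.288), and neither was called.

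Genes bound by the DREAM complex went down in Virma cKO. Of 16, 14 fell and 1 rose, with a median of -0.56 and falls of 0.87 ± 0.09 for the mitotic cyclin Ccnb1, 0.89 ± 0.11 for Ccna2 and 1.01 ± 0.15 for Cdc20, an activator of the anaphase ligase. Their summed share of the counts went from 0.448% and 0.45% in WT to 0.381% and 0.382% in cKO. Cell composition moved at the same time. Of 12 markers of feeder fibroblasts 11 rose, and their summed share went from 0.0982% and 0.0961% in WT to 0.271% and 0.267% in cKO. All 8 PrE markers fell, from 0.468% to 0.484% down to 0.0678% to 0.0679% of the counts, and 4 of 6 pluripotency markers fell. No feeder, PrE or pluripotency marker was at 0 in either group. The part of these shifts in the rise of the p53 targets was not tested. In bulk samples, fewer cells of a type and less RNA per cell cannot be told apart.

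In the libraries labelled Mettl3 cKO, Cdkn1a was the single member called. It was at 83.3 and 73.8 CPM in Mettl3 WT and at 103 and 111 CPM in Mettl3 cKO. The groups did not overlap, and it rose by 0.44 ± 0.08 (edgeR adjusted p = 0.00149), which stood under each library left out in turn (adjusted p at most 0.022). Over the 13115 genes tested, 3.95% were called (2.51% higher and 1.44% lower). All 10 members had a positive change, with a median of 0.22 against 0.00 for all genes, and 7 had an unadjusted p under 0.05. For 9 members both cKO libraries lay above both WT libraries, which held for 22.5% of tested genes (19.9% lay wholly lower).

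The changes of the other members in the Mettl3 table lay between 0.07 and 0.36. Phlda3 was at 37.7 and 31.2 CPM in WT and 41.5 and 47.7 CPM in cKO (0.36 ± 0.11, edgeR adjusted p = 0.0762). Ccng1 was at 159 and 191 CPM in WT and 224 and 198 CPM in cKO (0.28 ± 0.08, edgeR adjusted p = 0.061). Mdm2 was at 136 and 129 CPM in WT and 157 and 152.5 CPM in cKO (0.22 ± 0.07, edgeR adjusted p = 0.074). These 3 sat just over the threshold, and each was called under at least 1 other scaling or filter. With 1 library left out, Phlda3 stood at 0.51 without WT replicate 1 and 0.46 without cKO replicate 1. Ccng1 stood at 0.41 without WT replicate 2 and 0.35 without cKO replicate 2.

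The remaining members in the Mettl3 table were farther from a call. Bbc3 (0.23 ± 0.19, edgeR adjusted p = 0.657), Bax (0.22 ± 0.09, 0.235), Zmat3 (0.19 ± 0.07, 0.174) and Aen (0.19 ± 0.09, 0.325) all had cKO libraries above WT. Trp53inp1 overlapped (0.14 ± 0.09, edgeR adjusted p = 0.556) and Pmaip1 was flat within error (0.07 ± 0.09, edgeR adjusted p = 0.813).

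Among the other p53 targets in the Mettl3 table, 4 of 30 rose and 0 fell (edgeR; 10 had an unadjusted p under 0.05). They were Plk2 (0.45 ± 0.09), Dcxr (0.78 ± 0.19), Eda2r (0.50 ± 0.13) and Rps27l (0.26 ± 0.08), of which Plk2 alone was called in every leave-one-out fit. The BH3-only genes Bcl2l11 (0.48 ± 0.11) and Bid (0.41 ± 0.11) rose, each losing the call without cKO replicate 2 (adjusted p 0.068 and 0.227) and Bid also without WT replicate 1 (0.386). On ribosomal protein scaling Plk2 was not called either (0.40, adjusted p = 0.0586), and DESeq2 called none of Dcxr, Eda2r, Rps27l, Bcl2l11 and Bid (adjusted p 0.107 to 0.35). None of 15 regulators was called (edgeR; 0 at an unadjusted p under 0.05), and Trp53 stood at 0.07 ± 0.06 and Mdm4 at -0.08 ± 0.08. None of 16 DREAM genes was called (edgeR, 3 at an unadjusted p under 0.05). Since 3.95% of all genes tested were called here, no call in lists this short was near the share of all genes. Feeder markers rose here too, 10 of 12, from 0.248% and 0.235% of the counts to 0.34% and 0.355%, and 7 of 8 PrE markers fell. The part of these shifts in the rise of Cdkn1a was not tested.

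The difference between the Virma and the Mettl3 response, each against its own WT, was tested in 1 fit of the 8 libraries. Of the members, 6 differed upward and 1 downward, where 19.7% of 13872 genes were called, 8.74% upward and 10.9% downward. The tables differ in more than the gene named in their labels, and the column names of the Virma table carry the word "input". Cdkn1a rose by 0.82 ± 0.16 more in the Virma set (edgeR adjusted p = 0.00144), Aen by 0.91 ± 0.15 (0.000358), Trp53inp1 by 0.71 ± 0.15 (0.00288) and Zmat3 by 0.69 ± 0.15 (0.00348). Mdm2 (0.43 ± 0.10, edgeR adjusted p = 0.0055) and Phlda3 (1.00 ± 0.32, 0.032) followed. Phlda3 was not called without replicate 1 of any of the 4 groups (adjusted p 0.119 to 0.196). Mdm2 was not called without WT replicate 1, WT replicate 2 or cKO replicate 1 of the Virma table (0.112, 0.0626 and 0.0622), nor Zmat3 without Virma WT replicate 2 (0.0746). Pmaip1 differed by -0.43 ± 0.13 (edgeR adjusted p = 0.0227), a call that ended without Mettl3 WT replicate 1 (0.0925) or Mettl3 cKO replicate 1 (0.0739), on library totals (0.0981) and on ribosomal protein scaling (0.991). Ccng1 (0.31 ± 0.13), Bbc3 (0.94 ± 0.42) and Bax (0.34 ± 0.21) did not pass the test.

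The 2 WT groups started from different levels. On CPM scaled over all 46 libraries, Cdkn1a stood at 23.9 ± 0.59 in Virma WT and at 63.2 ± 5.8 in Mettl3 WT (SD, n = 2), and Pmaip1 at 335 ± 0.77 and 52.4 ± 2.3. Table and group coincide there, so these levels carry no test. In Virma cKO the level of Cdkn1a, 55.8 ± 4.8, lay near that of Mettl3 WT.

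In the libraries labelled siIgf2bp3, 2 members fell and none rose, where 7.32% of 12918 genes were called (2.79% higher and 4.52% lower). For 4 members both siIgf2bp3 libraries lay below both siNC libraries and for 2 above, as they did for 27.4% and 29.8% of tested genes. Bbc3 was at 49.6 and 34.4 CPM in siNC and at 24.1 and 23.9 CPM in siIgf2bp3. The 2 siIgf2bp3 libraries were nearly equal and below both siNC libraries, which differed widely, and Bbc3 fell by 0.80 ± 0.17 (edgeR adjusted p = 0.0248). Phlda3 was at 96.7 and 71.3 CPM in siNC and 57.5 and 57.1 CPM in siIgf2bp3, a fall of 0.55 ± 0.15 (edgeR adjusted p = 0.0482). Its call ended without either siIgf2bp3 library (adjusted p 0.202 and 0.182).

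Cdkn1a was lower in the same direction, at 136 and 116 CPM in siNC and 93.2 and 97.6 CPM in siIgf2bp3 (-0.40 ± 0.11). It missed the threshold (edgeR adjusted p = 0.0564, and 0.0177 to 0.059 under the other scalings, filters and tools). The other 7 members lay between -0.16 and 0.28. Replicates differed more in siNC than in siIgf2bp3 (chi-square 9.82 and 2.02 times its degrees of freedom). Calls with 1 library left out thus turned on which of these pairs remained. Without siNC replicate 1, Cdkn1a stood at -0.30, Mdm2 at -0.21 and Ccng1 at -0.26. Without siNC replicate 2, Cdkn1a stood at -0.51, Trp53inp1 at 0.29 and Zmat3 at 0.19. The changes over all genes in this table followed base composition: the rank correlation of a gene's change with the GC content of its longest coding transcript was -0.47 across 12588 genes, which are not independent and share the same 4 libraries. It was 0.10 in the Virma and -0.05 in the Mettl3 table. Bbc3 and Phlda3 are at 65.2% and 62.6% GC, the 99.4th and 98.4th percentile, and genes in the top 5% of GC had a median of -0.34. Bax, at 63.5% GC, stood at 0.08 ± 0.14. The part of GC content in these falls was not tested.

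Around the members in the Igf2bp3 table, 5 of 29 other p53 targets fell and 0 rose (edgeR; 12 had an unadjusted p under 0.05), led by Tap1, a peptide transporter, at -1.24 ± 0.18, and Ddit4, an inhibitor of mTORC1, at -0.77 ± 0.12. Trp53 rose, from 193 and 183 CPM in siNC to 281 and 264 CPM (0.53 ± 0.10, edgeR adjusted p = 0.0114), a call that ended without either siIgf2bp3 library (0.271 and 0.122). Mdm4 stood at 0.05 ± 0.12. None of 16 DREAM genes was called (edgeR, 2 at an unadjusted p under 0.05), where 7.32% of all genes tested were called. The feeder share was 0.08% and 0.0611% in siNC and 0.071% and 0.0706% in siIgf2bp3, and all 8 PrE markers fell. Of 11 tested feeder markers 3 rose and 0 fell (median 0.44), and 4 of 6 pluripotency markers rose and 0 fell (median 0.40). The part of these shifts in the changes of the p53 targets was not tested.

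**Figure D2:**
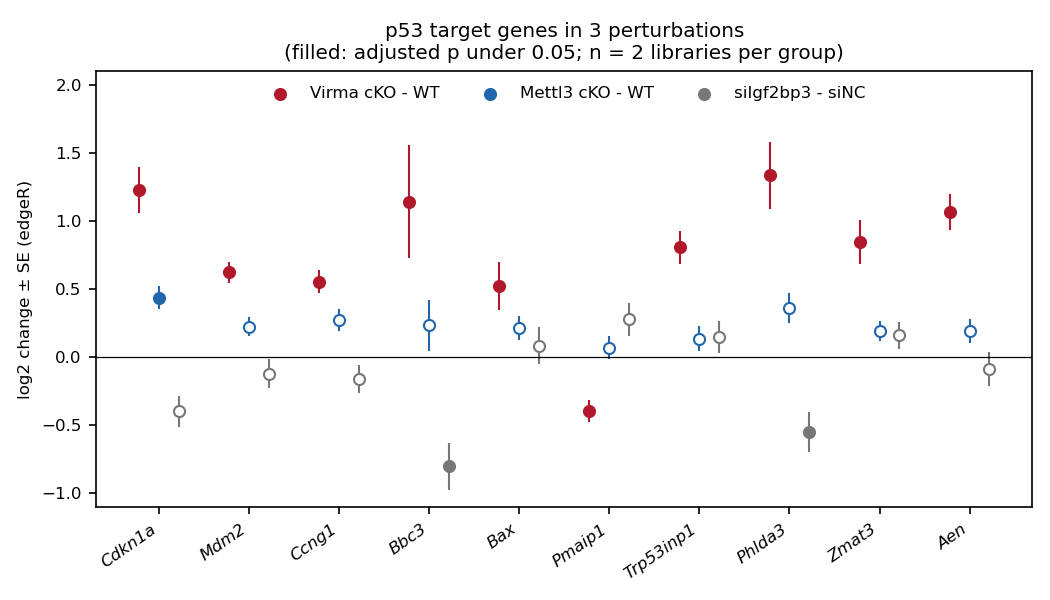
edgeR log2 change with its SE (vertical axis) of the 10 p53 target genes in the Virma, Mettl3 and Igf2bp3 tables, filled where the adjusted p was under 0.05. For Virma, 9 members are filled above 0 and Pmaip1 below, in the Mettl3 table Cdkn1a alone is filled, and in the Igf2bp3 table Bbc3 and Phlda3 are filled below 0.

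Between the sorted fractions, the p53 targets went in both directions. Of the 10, 2 were higher and 3 lower in PrE-E than in EPI-E, in a contrast that called 57.7% of 12423 genes (28.3% higher, 29.5% lower), so the share called was near that of all genes. The fractions did not overlap for 4 members on the higher and 4 on the lower side, against 39% and 40.9% of tested genes. Defining markers followed the labels: PrE markers made 2.69% to 2.7% of the counts in PrE-E and 0.00647% to 0.0067% in EPI-E, where Sox17 was at 0. Pmaip1 had the widest gap of the members, with 34 and 27.2 CPM in PrE-E against 654 and 601 CPM in EPI-E. It was 20.5-fold lower in PrE-E (-4.36 ± 0.10, edgeR adjusted p = 2.27e-12). Bax was at 29.1 and 28.2 CPM in PrE-E and 62.4 and 66 CPM in EPI-E (-1.16 ± 0.15, edgeR adjusted p = 2.78e-05).

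Ccng1 ran against these, with 168 and 167 CPM in PrE-E and 54.6 and 53.2 CPM in EPI-E (1.64 ± 0.10, edgeR adjusted p = 2.74e-08). Zmat3 was lower in PrE-E, at 23.2 and 24.1 CPM against 44.7 and 35.9 CPM (-0.77 ± 0.19, edgeR adjusted p = 0.00412). Phlda3 was at 26.8 and 15.7 CPM in PrE-E and 12.7 and 7.61 CPM in EPI-E (1.05 ± 0.34, edgeR adjusted p = 0.0172). That call ended without PrE-E replicate 1 (0.183) or EPI-E replicate 2 (0.0669).

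Cdkn1a was at its lowest level of the series in both sorted fractions, with 8.1 and 6.51 CPM in PrE-E and 5.57 and 7.15 CPM in EPI-E, which overlapped (0.20 ± 0.42, edgeR adjusted p = 0.718). Mdm2 (0.14 ± 0.10), Aen (0.22 ± 0.12), Trp53inp1 (-0.30 ± 0.18) and Bbc3 (-0.46 ± 0.52) also missed the threshold. Trp53 was at 14.5 and 14.8 CPM in PrE-E and at 69.97 and 81.8 CPM in EPI-E, and was lower by 2.36 ± 0.17 on the log2 scale (edgeR adjusted p = 8.83e-08). Mdm4 was at 0.37 ± 0.12 (edgeR adjusted p = 0.0226), a call that ended without PrE-E replicate 1 (0.16) or EPI-E replicate 2 (0.0664), on library totals (0.0667) and in DESeq2 (0.0697). Of 9 tested feeder markers, 6 were higher in PrE-E and none lower, with a summed share of 0.0385% of the counts in both PrE-E libraries and 0.0193% and 0.0205% in EPI-E, where Fap was at 0. Their part in these differences was not tested.

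The embryoid parts were compared with 6 libraries a side. Of the 10 members 1 was higher and 5 lower in VE than in EPI, where 72.5% of 11254 genes were called (34.5% higher, 38% lower). The median of the members was -0.51 against -0.05 for all genes. Bax ran from 330 to 362 CPM in EPI (median 357) and from 94.9 to 122 CPM in VE (median 108). No VE library reached an EPI library, and Bax was 3.24-fold lower in VE (-1.70 ± 0.06, edgeR adjusted p = 6.52e-16). Pmaip1 ran from 37.6 to 52 CPM in EPI (median 44.8) and from 2.26 to 7.44 CPM in VE (median 4.22), again without overlap (-3.20 ± 0.24, edgeR adjusted p = 1.81e-10).

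Mdm2 ran from 151 to 197 CPM in EPI (median 188) and from 92.3 to 142 CPM in VE (median 119). The groups came close but did not overlap (-0.63 ± 0.09, edgeR adjusted p = 2.43e-06). Aen ran from 146 to 172 CPM in EPI (median 161) and from 84.7 to 117 CPM in VE (median 91), also apart (-0.76 ± 0.08, edgeR adjusted p = 4.8e-08). These 4 members were the ones whose groups did not overlap, all lower in VE, as were 28.4% of tested genes, while 26.9% lay wholly higher.

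Ccng1 was higher in VE, with 291 to 386 CPM (median 332) against 251 to 299 CPM (median 274) in EPI, and its groups overlapped (0.30 ± 0.06, edgeR adjusted p = 0.000336). Bbc3 was near the limit of detection, with 5 to 22 counts a library in VE and 17 to 70 in EPI (-1.20 ± 0.48, edgeR adjusted p = 0.0302). That call ended in 6 of 12 leave-one-out fits (EPI replicates 1, 3 and 5 and VE replicates 3, 4 and 5), at an adjusted p of up to 0.0846. Cdkn1a ran from 94.7 to 118 CPM in EPI (median 101) and from 72.9 to 120 CPM in VE (median 88.2), and did not separate the parts (-0.12 ± 0.11, edgeR adjusted p = 0.361). Trp53inp1, Phlda3 and Zmat3 were not called (edgeR adjusted p 0.136, 0.979 and 0.0864). Trp53 ran from 762 to 888 CPM in EPI and from 111 to 138 CPM in VE (-2.79 ± 0.06, edgeR adjusted p = 1.06e-19), and Mdm4 was lower in VE too (-0.68 ± 0.11, edgeR adjusted p = 1.51e-05). Feeder markers were at most 0.00172% of the counts in every embryoid library, with Col3a1 and Lum at 0.

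**Figure D3:**
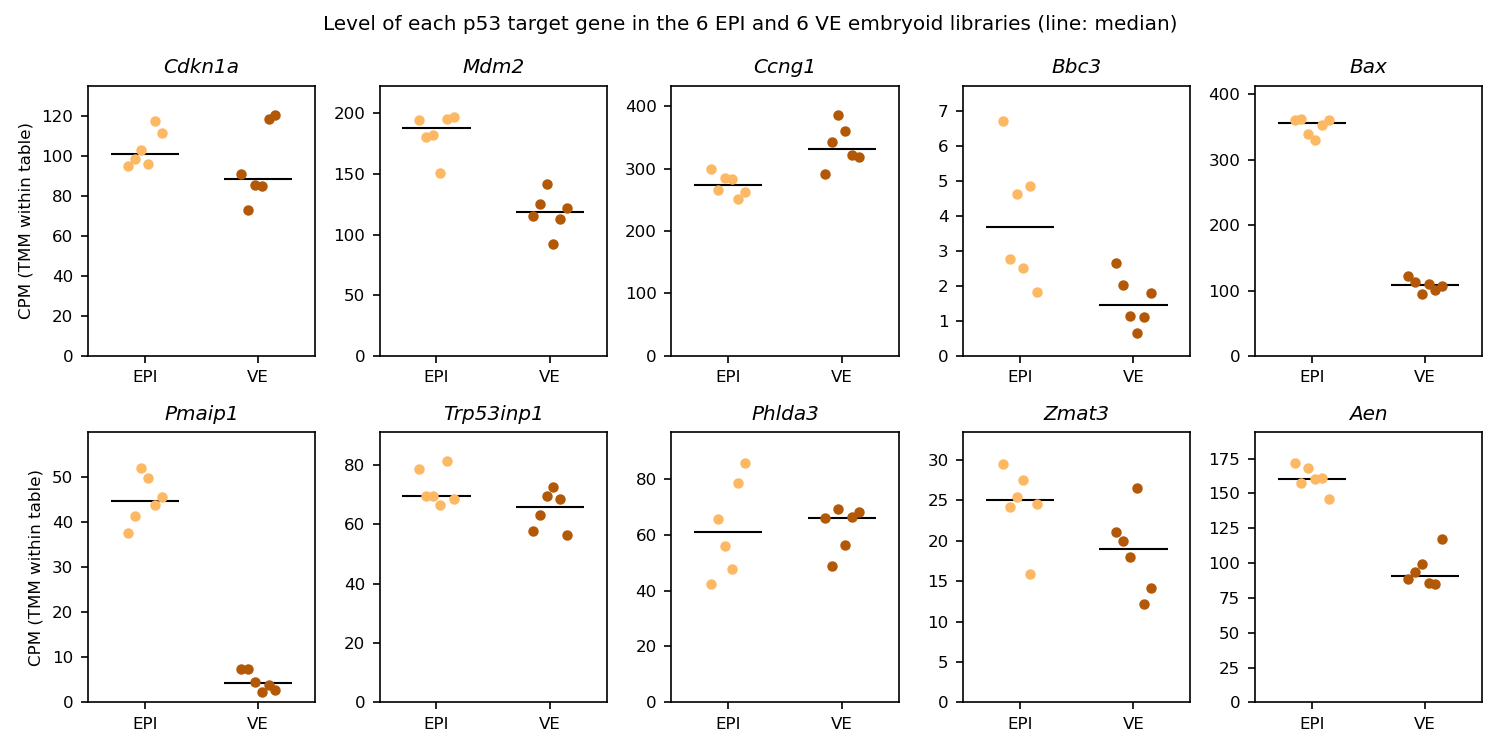
Level of each of the 10 p53 target genes in CPM (vertical axes, from 0) in the 6 EPI and 6 VE embryoid libraries (points), with the median as a line. Bax, Pmaip1, Mdm2 and Aen separate the parts without overlap, and Cdkn1a, Phlda3, Trp53inp1 and Zmat3 overlap widely.

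Unsorted PrE induction was read at 0 h of the actinomycin D series, where replicate libraries were close to counting error (chi-square 1.21 to 1.32 times its degrees of freedom) and 80.5% of 14127 genes were called. Of the members, 2 were higher and 6 lower in PrEdiff than in EPS (37.6% and 42.9% of genes). Cdkn1a went from 74.7 and 76.7 CPM in EPS to 34.1 and 33.6 CPM in PrEdiff (-1.16 ± 0.05). Pmaip1 went from 59 and 59.2 CPM to 22.5 and 22.4 CPM (-1.39 ± 0.06), and Bax from 111 and 113 CPM to 59.1 and 61.3 CPM (-0.90 ± 0.04). All 3 were well apart between states.

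Phlda3 was higher in PrEdiff (0.81 ± 0.06), as was Ccng1 (0.23 ± 0.03), and Aen (-0.38 ± 0.05), Zmat3 (-0.35 ± 0.04) and Mdm2 (-0.08 ± 0.03) were lower. The Mdm2 value turned to 0.10 on library totals and 0.02 on ribosomal protein scaling, and its call ended without replicate 2 of EPS (adjusted p = 0.371) or of PrEdiff (0.134). Bbc3 and Trp53inp1 were not called (edgeR adjusted p 0.317 and 0.205). Trp53 fell from 325 and 333 CPM to 89.8 and 87.9 CPM (-1.89 ± 0.03), while Mdm4 was higher in PrEdiff (0.32 ± 0.03). Of 12 feeder markers, 9 were lower and 1 higher in PrEdiff (median -0.66), with a summed share of 0.0247% to 0.0248% of the counts in EPS and 0.0144% to 0.0152% in PrEdiff and none at 0. Their part in these differences was not tested. Set side by side, Pmaip1, Bax and Trp53 were lower on the endoderm side in all 3 contrasts of state and Ccng1 was higher in all 3. Cdkn1a was called in the PrEdiff contrast and not in the other two, and the difference between contrasts was not tested.

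**Figure D4:**
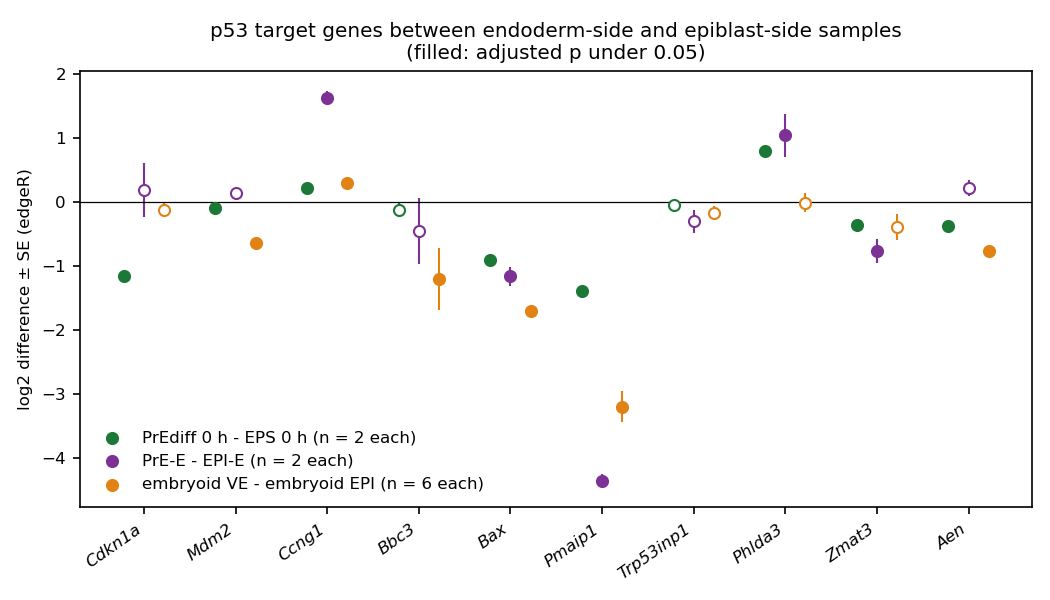
edgeR log2 difference with its SE (vertical axis) of the 10 p53 target genes for PrEdiff 0 h against EPS 0 h, PrE-E against EPI-E and embryoid VE against embryoid EPI, filled where the adjusted p was under 0.05. Pmaip1 and Bax are filled below 0 and Ccng1 above 0 in all 3, and Cdkn1a is filled in the first alone.

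Over all 19 groups, scaled together, the members did not share an order. Cdkn1a was highest in embryoid VE (110 ± 26 CPM, SD, n = 6) and embryoid EPI (106 ± 9.1), which overlapped, then in siNC (95.3 ± 11), and lowest in EPI-E (7.43 ± 1.3). Mdm2 was highest in Virma cKO (282 ± 0.55) and next in embryoid EPI (188 ± 16), which overlapped Virma WT (184 ± 4.5). Pmaip1 was highest in EPI-E (733 ± 43), then Virma WT (335 ± 0.77) and Virma cKO (253 ± 36), and lowest in embryoid VE (5.41 ± 2.5). Bax was highest in embryoid EPI (361 ± 17) and lowest in PrE-E (32.5 ± 0.2), which overlapped Virma WT (32.7 ± 9.2). Phlda3 was highest in embryoid VE (71.9 ± 11), which overlapped embryoid EPI (64.5 ± 18), and lowest in EPI-E (11.8 ± 4.2), which overlapped Virma WT (13.2 ± 6.9), Aen was highest in embryoid EPI (165 ± 9.1), and Trp53inp1 was highest in EPSC (145 ± 1.7).

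As a description over the 18 groups of the 6 tables with more than 1 group, centred by table, the log2 level of Cdkn1a correlated with that of Bbc3 at 0.61, Aen and Mdm2 at 0.56, Trp53inp1 at 0.44 and Zmat3 at 0.37. With Bax it was 0.21, with Phlda3 and Pmaip1 0.10 and with Ccng1 -0.11. The groups share tables and controls. They include the actinomycin D time points of both states, so the values mix changes after the block with differences between states. The 5 genes most like Cdkn1a among 8999 with a mean of at least 10 CPM were Mrps2, Trp53rkb, Sema4b, Zbtb2 and Tbcc, at 0.90 to 0.92, and none was a member.

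After actinomycin D, a CPM shows a transcript relative to the average transcript left in the library, so a slope of 0 means average loss, not a stable RNA. Cdkn1a fell in both states, and its slope was steeper in EPS than in PrEdiff. In EPS it went from 74.7 and 76.7 CPM at 0 h to 51.9 and 49.1 at 1 h, 33.7 and 35.8 at 2 h, and 23 and 22.7 at 3 h. Each hour lay below the one before without overlap, and the slope was -0.57 ± 0.03 a hour on the log2 scale (edgeR adjusted p = 1.31e-08). In PrEdiff it went from 34.1 and 33.6 CPM to 24.6 and 24.3, then 25.4 and 23.5, and 20.2 and 22.1 at 3 h.

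In PrEdiff most of the drop in Cdkn1a came in the first hour, and the slope was -0.20 ± 0.03 (edgeR adjusted p = 0.000377). The difference of the slopes, 0.37 ± 0.05, passed the test (edgeR adjusted p = 0.00396), as did 1.27% of 14127 genes, 1.13% in this direction. It was between 0.35 and 0.39 with any 1 library left out, and 0.24 without the 3 h libraries (edgeR adjusted p = 0.0437). With ribosomal protein scaling it was 0.22 (edgeR adjusted p = 0.652).

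Mdm2 and Bbc3 also fell in EPS. Mdm2 went from 117 and 124 CPM at 0 h to 60.2 and 61.8 CPM at 3 h, with most of the loss by 2 h (slope -0.34 ± 0.05, edgeR adjusted p = 4.36e-05). In PrEdiff it reached 80.8 and 80.2 CPM at 2 h and came back to 99.1 and 97.8 CPM at 3 h (-0.08 ± 0.05, edgeR adjusted p = 0.177). The difference of the slopes was 0.26 ± 0.07 and missed the threshold (edgeR adjusted p = 0.0739). It was called in DESeq2 (0.26, adjusted p = 0.0069) and without the EPS 3 h libraries (0.37, edgeR adjusted p = 0.0038). The contrasts of 3 h and of 2 h against 0 h called it too, at 0.26 and 0.20 an hour, while ribosomal protein scaling did not. Bbc3 in EPS held at 9.16 and 10.1, then 11.3 and 11 CPM at 1 h, before dropping to 3.25 and 2.28 CPM at 3 h (-0.56 ± 0.13, edgeR adjusted p = 0.003). Without the 3 h libraries the Bbc3 slope was -0.14 (adjusted p = 0.144). Thus 3 members fell and none rose in EPS, where 36.7% of genes were called (18.5% fell and 18.2% rose), and Trp53inp1 lay on the threshold (-0.18 ± 0.07, edgeR adjusted p = 0.0502).

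Bax rose and then turned. In EPS it went from 111 and 113 CPM at 0 h to 227 and 223 at 1 h and 291 and 285 at 2 h, then back to 158 and 155 at 3 h. Against 0 h this was 1.00 ± 0.03, 1.36 ± 0.03 and 0.48 ± 0.03. In PrEdiff the same shape was smaller, from 59.1 and 61.3 CPM to 86.1 and 92.1, 122 and 124, and 102 and 103. Neither straight-line slope was called for Bax (0.19 ± 0.14 and 0.28 ± 0.13), and the points did not lie on a line.

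Phlda3 had the same turn. It went from 26.7 and 27.5 CPM in EPS to 35.3 and 36.2 at 1 h, 35.7 and 33.2 at 2 h, and 16.1 and 18.8 at 3 h. From 2 h to 3 h, a contrast added after the values were seen, Bax (-0.88 ± 0.03), Phlda3 (-0.97 ± 0.07), Bbc3 (-1.35 ± 0.16) and Cdkn1a (-0.60 ± 0.07) fell in EPS. Aen (0.46 ± 0.05), Trp53inp1 (0.43 ± 0.05), Pmaip1 (0.35 ± 0.05), Ccng1 (0.23 ± 0.03) and Zmat3 (0.15 ± 0.04) rose, and Mdm2 was not called (-0.08 ± 0.05, edgeR adjusted p = 0.133). That contrast called 66.1% of 14127 genes, 34.5% higher and 31.6% lower. In PrEdiff the same 4 members fell, Cdkn1a by 0.21 ± 0.08 (edgeR adjusted p = 0.0196), Bax by 0.27 ± 0.04, Phlda3 by 0.66 ± 0.05 and Bbc3 by 0.86 ± 0.14. Mdm2 (0.29 ± 0.04), Ccng1 (0.14 ± 0.03), Pmaip1 (0.43 ± 0.07) and Trp53inp1 (0.15 ± 0.04) rose there, and Zmat3 and Aen were not called (edgeR adjusted p 0.593 and 0.093). Of all genes 39.4% were called in PrEdiff, 18.4% higher and 21% lower. Bax, Phlda3 and Bbc3 are the members richest in GC. Across 13780 genes the rank correlation of change with GC content was 0.29 from 0 to 2 h and -0.39 from 2 to 3 h in EPS, and 0.29 and -0.36 in PrEdiff. Bax and Bbc3 also have the densest GGACT motif, a core of m6A sites, at 2.73 and 2.76 a kilobase of their longest coding transcript (median of 21877 genes 1.01), while Cdkn1a has 1.92. The part of GC content in these turns was not tested.

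Trp53inp1 was below its 0 h level at each time, at -0.64, -0.93 and -0.50 after 1, 2 and 3 h in EPS and at -0.27, -0.50 and -0.35 in PrEdiff. In PrEdiff, Pmaip1 rose from 22.5 and 22.4 CPM at 0 h to 34.9 and 31.1 CPM at 3 h (slope 0.18 ± 0.04, edgeR adjusted p = 0.00512) and Ccng1 from 197 and 201.5 CPM to 254 and 244 CPM (0.10 ± 0.03, edgeR adjusted p = 0.0159), both relative to the average, and Cdkn1a was the 1 that fell, where 36.9% of genes were called (20.3% rose and 16.6% fell). The Ccng1 call ended without either 0 h library or without replicate 1 at 3 h of PrEdiff, at an adjusted p of up to 0.0649. Without the 3 h libraries neither was called (Ccng1 0.05, adjusted p = 0.178, and Pmaip1 0.02, adjusted p = 0.679). On library totals the PrEdiff slope of Ccng1 was -0.04 and that of Pmaip1 0.04, and on ribosomal protein scaling -0.27 and -0.19. Zmat3 and Aen had no called slope in either state over 0 to 3 h. Without the 3 h libraries Aen fell, by 0.19 a hour in EPS (edgeR adjusted p = 6.22e-05) and by 0.098 in PrEdiff (0.0209), and on ribosomal protein scaling it fell in PrEdiff by 0.38 (0.0349). The Zmat3 slope in PrEdiff, 0.04 as reported, turned to -0.33 on ribosomal protein scaling (edgeR adjusted p = 0.0298). Trp53 rose relative to the average in EPS (0.14 ± 0.03) and in PrEdiff (0.13 ± 0.03), and turned to -0.09 and -0.25 on ribosomal protein scaling. The PrEdiff call of Trp53 ended without replicate 1 (adjusted p = 0.05003) or replicate 2 (0.0579) at 0 h of PrEdiff.

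Of 30 other p53 targets, 11 fell and 2 rose in EPS and 9 fell and 7 rose in PrEdiff. Over all genes 36.7% were called in EPS (18.5% fell and 18.2% rose) and 36.9% in PrEdiff (16.6% fell and 20.3% rose). The kinases Dyrk3 (-1.19 ± 0.06 in EPS, -0.76 ± 0.06 in PrEdiff), Plk2 (-0.90 ± 0.07, -0.72 ± 0.07) and Plk3 (-0.62 ± 0.04, -0.24 ± 0.04) fell in both. As with Cdkn1a, the slope of Plk3 was less steep in PrEdiff by 0.38 ± 0.05 (edgeR adjusted p = 0.00396), that of Dyrk3 by 0.44 ± 0.09 (0.0203) and that of Btg2, an antiproliferative gene, by 0.28 ± 0.06 (0.0225). The calls of Dyrk3 and Btg2 ended in 5 and 7 of 16 leave-one-out fits (a library of EPS at 3 h or of PrEdiff at 0 or 3 h for both, and EPS replicate 2 at 0 h for Btg2), with adjusted p up to 0.0863 and 0.0854. Without the 3 h libraries the differences of Plk3, Dyrk3 and Btg2 were 0.21, 0.29 and 0.11, and none was called (adjusted p 0.0592, 0.0869 and 0.312). On ribosomal protein scaling they were 0.24, 0.30 and 0.15, each with an adjusted p of 0.652.

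**Figure D5:**
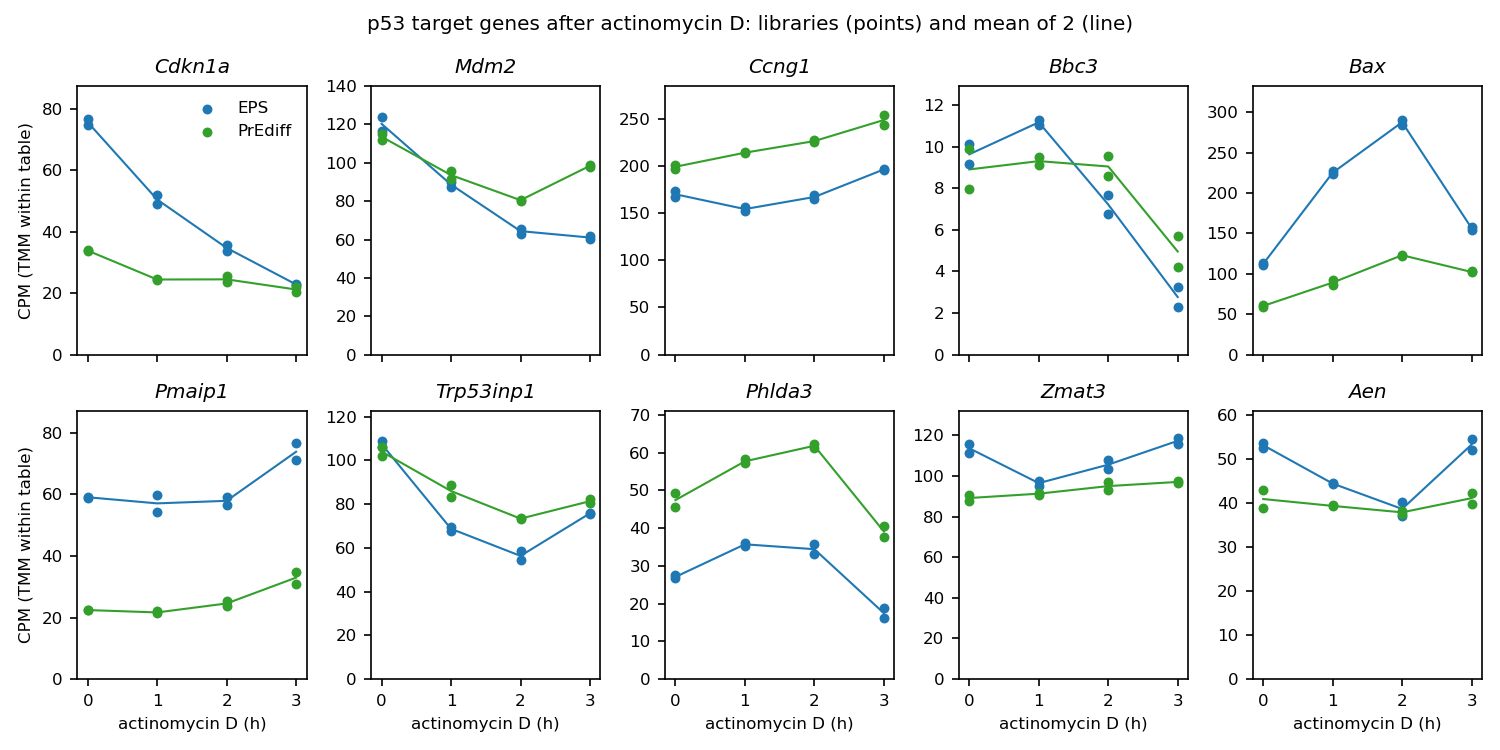
Level of each of the 10 p53 target genes in CPM (vertical axes, from 0) against hours of actinomycin D in EPS and PrEdiff, with each library as a point and the mean of 2 as a line. Cdkn1a drops at every step in EPS, from about 75.7 to 22.8 CPM on average, and less in PrEdiff, and Bax rises to 2 h and turns down at 3 h in both.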

How the data were processed

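The 46 libraries, in 19 groups, measured RNA by sequencing. The deposited tables hold raw counts per gene. Per the submitters' processing notes, reads were processed with STAR 2.7.11b against mm39, and Subread, Trim Galore, DESeq2 and FastQC 0.12.1 are also named; the annotation and strand setting are not given in the sources used here, and per the labels' protocols 2 library kits were used, with no statement of which library had which. Bax overlaps Gm45808 on its own strand, so their reads may be shared.

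Genes were filtered with filterByExpr (minimum count 10, total 15) and tested per table in edgeR 4.0.16 under R 4.3.3 by the quasi-likelihood test with TMM factors and prior count 2. Adjusted p-values are Benjamini-Hochberg over all genes tested, called under 0.05. The SE given with an edgeR change was derived from its test, as the absolute log2 change over the square root of the F statistic. DESeq2 1.42.0, other scalings and filters, a replicate block and leave-one-out fits were alternatives. The fitting code was tested on simulated counts. The untreated EPSC libraries, with 19 repeated symbols left out, entered levels only. Depth was 6854433 to 22280769 counts a library. GC content and GGACT counts are of the longest coding transcript in GENCODE M21. Named genes were the members, the targeted genes, Trp53, Mdm4 and up to 4 genes of each other list with the lowest adjusted p. The members and lists were chosen with earlier results of these data known. Same-numbered replicates did not deviate together (correlations -0.09 to 0.04).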

Additional observations from a re-analysis of the deposited data

Results flagged for a closer look

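Among the 6 embryoid EPI libraries, the lowest for Mdm2, at 151 CPM, lay apart from the others, with a gap of 0.642 of the range. Chance flags about 1 in 20 groups in this way. The slope of Cdkn1a after actinomycin D differed between PrEdiff and EPS by 0.37 on the log2 scale an hour, by the test of the difference itself. On ribosomal protein scaling it was 0.22 and not called (edgeR adjusted p = 0.652). The change in Virma cKO differed from that in the libraries labelled Mettl3 cKO by the same kind of test for 7 members, where 19.7% of 13872 genes were called. Cdkn1a differed by 0.82, Mdm2 by 0.43, Pmaip1 by -0.43, Trp53inp1 by 0.71, Phlda3 by 1.00, Zmat3 by 0.69 and Aen by 0.91. The calls of Mdm2, Pmaip1, Phlda3 and Zmat3 did not hold in every fit with 1 library left out.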

How the results depend on the processing

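Of 100 member values, 97 kept direction and call under RLE size factors, 93 under DESeq2, 96 under a filter of 1 CPM, 94 without a filter, 96 under the replicate block, 76 on library totals and 65 on ribosomal protein scaling. On ribosomal protein scaling, 0 members fell in Virma cKO (0.018 for Pmaip1) and 0 in the difference of responses, and 4 were higher in PrE-E. The VE differences became 0.20 for Cdkn1a, 0.16 for Trp53inp1 and 0.31 for Phlda3, and the 0 h differences 0.024 for Mdm2 and 0.060 for Trp53inp1. EPS slopes became -0.16 for Ccng1, -0.056 for Bax, -0.13 for Pmaip1, -0.21 for Zmat3, -0.092 for Trp53 and -0.11 for Mdm4. In PrEdiff 0 members rose and 8 fell. Signs turned there, called or not, for Ccng1 (-0.27), Bax (-0.10), Pmaip1 (-0.19), Zmat3 (-0.33) and Trp53 (-0.25). The count of slope differences was 0. Their signs turned for Ccng1 (-0.12), Bax (-0.047), Pmaip1 (-0.064), Trp53inp1 (-0.10), Phlda3 (-0.022), Zmat3 (-0.13) and Aen (-0.14). On library totals, 4 members rose in Mettl3 cKO, 0 fell in the difference of responses, and 4 were higher at 0 h. Signs at 0 h turned, called or not, for Mdm2 (0.096), Bbc3 (0.063) and Trp53inp1 (0.13). On that scale 5 members fell in EPS, and 0 rose and 4 fell in PrEdiff. Signs turned without a call in EPS for Ccng1 (-0.037), Pmaip1 (-0.0091) and Zmat3 (-0.085). In PrEdiff they turned without a call for Ccng1 (-0.041), Zmat3 (-0.10) and Trp53 (-0.019). Slope differences turned to -0.0040 for Ccng1, -0.017 for Zmat3 and -0.025 for Aen, none called.

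In Mettl3 cKO 2 members rose under RLE and under 1 CPM, and 3 without a filter. The VE difference was 0.0028 for Phlda3 without a filter and 0.026 for Phlda3 under the replicate block, which did not pair the samples, and that at 0 h was 0.015 for Trp53inp1 from the 0 h libraries alone. DESeq2 called 1 rise in EPS and 2 slope differences. Without the 3 h libraries 2 members rose in EPS (0.21 for Phlda3, -0.018 for Zmat3 and -0.40 for Mdm4) and 4 fell in PrEdiff (0.15 for Phlda3), with differences of -0.24 for Bax, -0.00025 for Pmaip1, -0.063 for Phlda3 and 0.032 for Mdm4. Without the EPS 3 h libraries 1 rose in EPS (-0.013 for Ccng1, -0.014 for Pmaip1, 0.17 for Phlda3, -0.054 for Zmat3 and -0.44 for Mdm4), 3 fell in PrEdiff, and 6 differences were called positive and 1 negative, with -0.041 for Bbc3, -0.40 for Bax, -0.24 for Phlda3 and 0.37 for Mdm4. For 3 h against 0 h, 3 rose and 5 fell in EPS (0.0011 for Aen), 4 rose and 5 fell in PrEdiff (0.0035 for Aen), and 8 differences were called positive. For 2 h against 0 h, 2 rose and 6 fell in EPS (-0.012 for Ccng1, -0.014 for Pmaip1, 0.17 for Phlda3, -0.053 for Zmat3 and -0.43 for Mdm4), 4 rose and 3 fell in PrEdiff (0.0097 for Bbc3 and 0.19 for Phlda3), and 7 differences were called positive and 1 negative, with -0.16 for Bax, 0.065 for Trp53 and 0.11 for Mdm4. The cause of these changes was not tested. Member counts in this section stand without the share of all genes called under the same setting. They show how calls moved with the setting and are no result about the members.

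With each library left out in turn, 0 to 1 members rose in the EPS slope and 1 to 2 in the PrEdiff slope. Counts are not given for contrasts of groups of 2 libraries, where 1 group then held a single library. Values that crossed 0 ranged, in Mettl3 cKO, from -0.026 to 0.26 for Trp53inp1, -0.19 to 0.039 for Mdm4 and -0.071 to 0.030 for Mettl3. In siIgf2bp3 they ranged from -0.097 to 0.21 for Bax, -0.0018 to 0.29 for Trp53inp1, -0.21 to 0.027 for Aen, -0.14 to 0.25 for Mdm4 and -0.013 to 0.21 for Igf2bp3. The difference of responses ranged from -0.061 to 0.52 for Bax, the VE difference from -0.097 to 0.10 for Phlda3, and that at 0 h from -0.28 to 0.029 for Bbc3. Slopes ranged from -0.068 to 0.021 for Aen in EPS, and in PrEdiff from -0.13 to 0.013 for Phlda3 and -0.025 to 0.023 for Aen. Slope differences ranged from -0.058 to 0.22 for Bax, -0.0067 to 0.11 for Trp53inp1, -0.00032 to 0.21 for Phlda3, -0.013 to 0.039 for Zmat3, -0.024 to 0.065 for Aen and -0.029 to 0.025 for Trp53. Depth limits Bbc3 most, with as few as 5 counts in a library.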
